A study of Mus musculus with 12 samples.

Results

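The immunoglobulin genes of the liver were examined as 206 features of a transcriptome array, out of 65956 transcript features in all. Taken were the features that carry 1 gene symbol beginning with Ighv, Igkv or Iglv, together with every feature of Ighm, Igkc or Jchain. This gave 113 Ighv features, 86 Igkv features and 0 Iglv features. Of the first 2 sets, 110 and 79 are annotated as V segments and the other 3 and 7 as pseudogenes of V segments. The remaining 7 were features of the 3 other genes. Ighm and Jchain each had a feature of their own, while 4 more features of Ighm share it with another gene, and Igkc lies only in a feature with 14 symbols of the kappa locus. The Ighv features lie on chromosome 12 and the Igkv features on chromosome 6, as RefSeq places them on the GRCm38.p6 assembly.

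An antibody pairs heavy chains with light chains, which in mice are mostly of the kappa type. The variable end of each chain is encoded by a V segment that recombination has joined to short joining segments, and to diversity segments in heavy chains, in the developing B cell; the other end is a constant region such as that encoded by Ighm for IgM or Igkc for kappa. Jchain encodes the small chain that links IgM and IgA into polymers. Transcripts of joined segments are made in quantity by plasma cells and plasmablasts, the antibody-secreting descendants of B cells, which in a healthy liver are a small minority beside hepatocytes.

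The livers came from C57BL6/J mice aged 12 weeks, with 1 array per mouse. There were 3 KO females (ENT3 -/-, animals 13, 40 and 69), 3 WT females (ENT3 +/+, animals 25, 27 and 38), 3 KO males (animals 18, 19 and 39) and 3 WT males (animals 17, 23 and 33). ENT3 is the nucleoside transporter encoded by Slc29a3, found mainly in lysosomal membranes. How the allele was made, and whether the mice were littermates, was not stated in the sources at hand. Females and males were read from a letter in each title, and Xist lay between 10.3 and 12.4 on the 6 arrays with F and between 4.18 and 4.45 on the 6 arrays with M. Slc29a3 lay between 4.10 and 4.19 in KO and between 4.82 and 5.29 in WT livers, without overlap, but was above the 95th percentile of the negative control features on none of the 12 arrays. All 9 hepatocyte genes looked up stood above it on all 12. All values are the deposited log2 signals, and differences are KO minus WT on that scale, each with its standard error (SE) from limma. In whole liver, fewer cells of a type and less RNA per cell cannot be told apart.

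Many of these features were dim, and each array was therefore read against its own 5222 negative control features, which are meant to match no transcript. The median of the 206 features was 5.13, 4.32 and 5.15 in KO females 13, 40 and 69, against 4.04, 3.95 and 3.93 in WT females 25, 27 and 38. It was 4.72, 4.26 and 4.24 in KO males 18, 19 and 39, against 4.15, 3.85 and 3.84 in WT males 17, 23 and 33. The 6 KO medians thus all stood above the 6 WT medians, with KO females 13 and 69 and KO male 18 set apart from the other KO mice. The negative controls were themselves slightly higher in KO, with medians of 3.86 to 3.97 in KO and 3.75 to 3.84 in WT arrays, a difference of 0.14 (exact permutation of genotype in each sex, 400 arrangements, two-sided p = 0.005, which is the smallest possible; 0.00667 after Benjamini-Hochberg over 4 array measures). On their own array's scale, the immunoglobulin median exceeded the negative control median by 1.15, 0.38 and 1.20 in KO females, by 0.25, 0.20 and 0.15 in WT females, by 0.80, 0.40 and 0.29 in KO males, and by 0.36, 0.02 and -0.0036 in WT males. On this scale KO and WT males overlapped, since WT male 17 exceeded KO male 39.

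The number of immunoglobulin features above the 95th percentile of the negative controls was 43, 19 and 39 in KO females and 3, 4 and 3 in WT females. It was 31, 5 and 4 in KO males and 7, 3 and 3 in WT males. A total of 152 of the 206 features passed that level on no array, so their differences are those of signals within the range of the negative controls. Only 16 passed it on all 3 arrays of at least 1 group, namely Ighm, 11 segments of the Igkv4 subgroup, Ighv1-2, Ighv2-5, Ighv5-12-4 and Ighv6-3. Of these 16, 12 passed through KO females alone, so that their count says little beyond the level in that group. The count was 37 without KO female 40, where fewer arrays had to pass, 28 with the 90th percentile and 0 with the 99th.

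**Figure D1:**
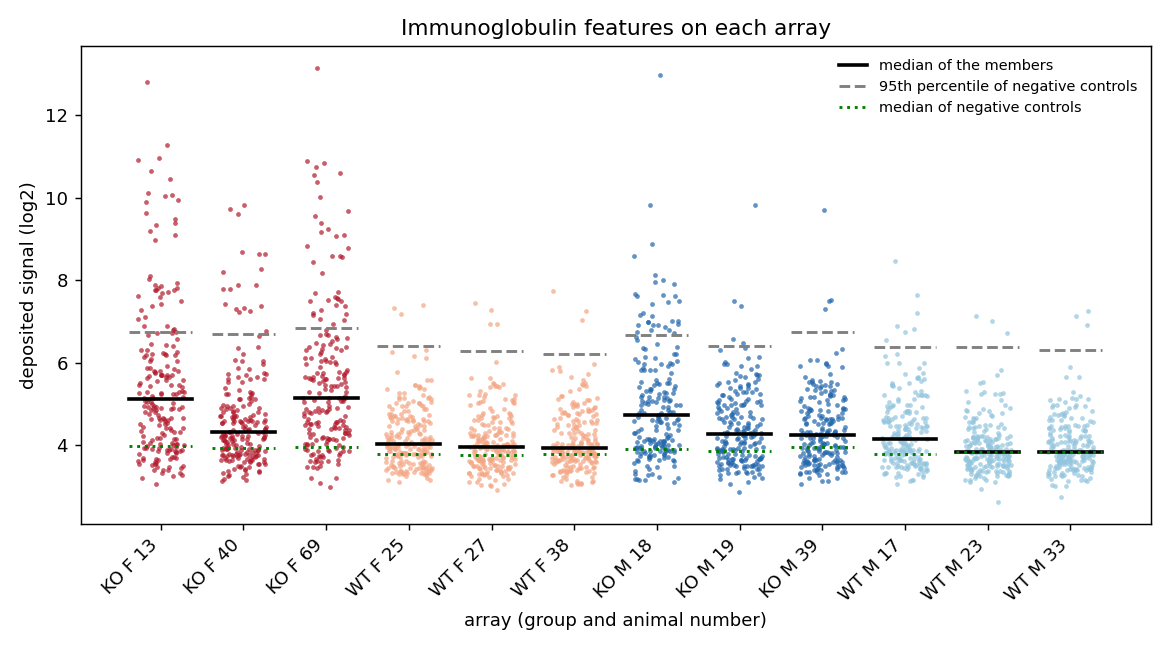
Deposited log2 signal (vertical axis) of the 206 immunoglobulin features on each of the 12 arrays (horizontal axis, KO beside WT within each sex); each point is 1 feature, the black bar is the median, and the dashed and dotted lines are the 95th percentile and the median of that array's negative control features. The medians of KO females 13 and 69, at 5.13 and 5.15, are the highest, and the WT medians lie between 3.84 and 4.15.

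Over both sexes, 64 of the 206 features rose in KO livers and 0 fell (limma, Benjamini-Hochberg adjusted p below 0.05 over all features), against 5.28% of all transcript features that rose and 4.47% that fell. They comprised 30 of 113 Ighv features, 29 of 86 Igkv features and 5 of the 7 features of Ighm, Igkc and Jchain. The median difference was 0.56 over the 206 features, 0.05 over all transcript features and 0.06 over 111 T cell receptor variable segments, of which 1 rose. Of those 111, 110 were above the negative controls' 95th percentile on no array, so that a rise in their transcripts could have gone unseen. A positive difference was found in 190 of the 206, against 42954 of the 65956 transcript features. Quantile normalization, centring on the transcript median and centring on the negative control median gave 51, 62 and 60 immunoglobulin features that rose and 0 that fell. The same 3 scalings gave 2562, 2538 and 2195 of all transcript features that rose and 4291, 4001 and 7133 that fell, against 3482 and 2950 as deposited, and the last of them moved the median of all transcript features to -0.09. In 30 of the 206 immunoglobulin features every KO array lay above every WT array, a pattern shown by 1.97% of all transcript features. Of the 64 that rose, 27 were above the 95th percentile of the negative controls on no array and 15 were above it on all arrays of at least 1 group. Poly-A spikes, bacterial RNA added before labelling, averaged 5.44 ± 0.36 in KO and 6.30 ± 0.32 in WT arrays (SD, n = 6 each; exact permutation p = 0.005, the smallest possible; 0.00667 after adjustment over 4 measures). With their level as a covariate limma called 0 immunoglobulin features, with 15 at an unadjusted p below 0.05 and a median difference of 0.52, and among all transcript features 2 rose and 1 fell. Leaving out KO female 40 gave 97 that rose, while leaving out WT male 33, WT male 23, KO female 69, WT female 38, KO male 18 or WT female 27 gave 38, 39, 41, 41, 42 and 42. The negative controls, the poly-A spikes and the immunoglobulin features thus differed between the same arrays, and the part of the first 2 in the immunoglobulin differences was not tested.

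Ighm, the constant region of IgM heavy chains, had signals of 9.38, 9.61 and 9.09 in KO females, against 6.30, 6.01 and 5.73 in WT females. In males it had 7.92, 6.48 and 6.06 in KO livers, against 6.54, 4.84 and 4.77 in WT livers. The female groups were far apart and above and below the negative control level, whereas in males WT male 17 lay above KO males 19 and 39. The difference over both sexes was 2.39 ± 0.38 (limma adjusted p = 0.00392), with a range of 2.12 to 2.68 over the 12 fits without 1 mouse. Within females it was 3.35 ± 0.53 (limma adjusted p = 0.0073). With the mean 95th percentile of the negative controls in WT females in place of the WT signals, the KO female mean was 8.39-fold higher. That value takes no account of the spread between mice. Within males the difference was 1.44 ± 0.53 (limma adjusted p = 0.276).

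The 4 shared features of Ighm differed less. The feature shared with Ighv2-6 rose by 0.87 ± 0.21 (limma adjusted p = 0.0289) and that shared with Ighv2-7 by 0.35 ± 0.08 (limma adjusted p = 0.0206), both without reaching the negative controls' 95th percentile on any array. The feature shared with Igkv8-27 differed by 0.36 ± 0.17 (limma adjusted p = 0.259) and the feature shared with Ighg3 by 0.03 ± 0.06 (limma adjusted p = 0.851), which turned negative under each of the 3 other scalings. The feature shared with Ighv2-6 had a difference of 1.46 in males and 0.29 in females, and its call was lost in 8 of the 12 fits that left out 1 mouse. The feature shared with Ighv2-7 lost its call under all 3 other scalings and without KO male 18 or WT male 23.

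Jchain, the joining chain of polymeric antibodies, had 5.26, 4.59 and 5.43 in KO females, against 3.94, 3.76 and 3.99 in WT females. In males it had 5.25, 4.31 and 4.34 in KO livers, against 4.21, 3.87 and 3.99 in WT livers. All 6 KO values lay above all 6 WT values, and the difference was 0.90 ± 0.19 (limma adjusted p = 0.0154). None of the 12 values reached the 95th percentile of the negative controls. KO females 13 and 69 and KO male 18 were again the highest arrays.

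The feature of the kappa locus that holds Igkc also carries joining segments and several V segments, and so measures no single gene. It had 5.57, 5.24 and 5.75 in KO females, against 4.53, 4.34 and 4.49 in WT females. In males it had 5.31, 4.65 and 4.63 in KO livers, against 4.81, 4.28 and 4.22 in WT livers. The sets overlapped through WT male 17 and rose by 0.75 ± 0.15 in KO (limma adjusted p = 0.0129).

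**Figure D2:**
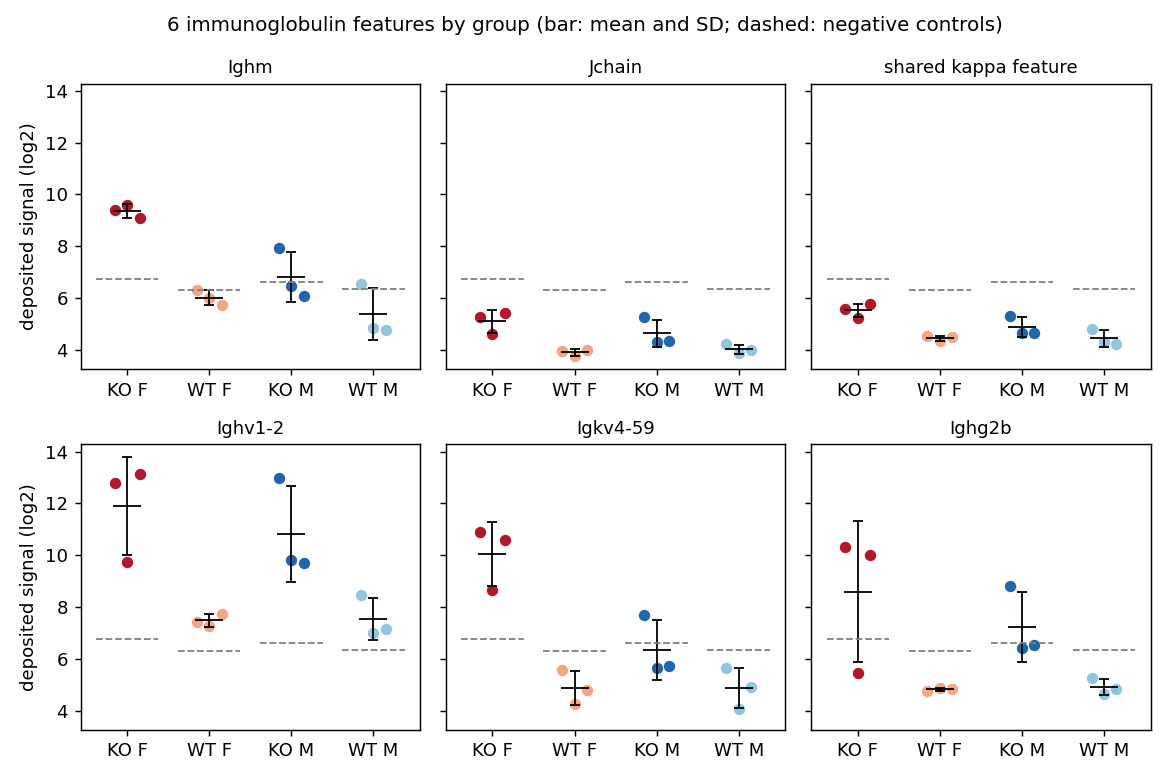
Deposited log2 signal (vertical axes) of 6 immunoglobulin features in KO F, WT F, KO M and WT M livers; points are mice, black bars the mean and SD of 3 mice, and dashed lines the mean of the group's 95th percentiles of the negative controls. Ighm separates KO females (9.09 to 9.61) from the rest, while in the Ighg2b panel KO female 40, at 5.45, lies near the WT livers and far from KO females 13 and 69.

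Among heavy chain V segments, most that rose belonged to Ighv1, the largest subgroup of heavy chain V segments in the mouse. Of its 61 features 23 rose and 0 fell, with a median difference of 1.10, while 7 of the 52 other Ighv features rose, with a median of 0.29. Ighv1-2, annotated as a pseudogene, had the largest difference of all 206. Its signals were 12.81, 9.74 and 13.15 in KO females against 7.41, 7.28 and 7.75 in WT females, and 12.97, 9.81 and 9.70 in KO males against 8.46, 7.01 and 7.14 in WT males. No KO value overlapped a WT value, and the difference was 3.86 ± 0.72 (limma adjusted p = 0.00859). KO females 13 and 69 and KO male 18 stood about 3 units above the other KO mice. Of the other 9 pseudogenes 0 rose.

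Ighv1-53 followed the same arrays, with 8.97, 6.65 and 8.77 in KO females against 5.02, 5.22 and 5.09 in WT females, and 9.82, 6.31 and 5.34 in KO males against 5.59, 4.01 and 4.08 in WT males. Its difference was 2.81 ± 0.73 (limma adjusted p = 0.0383), and the call was lost in 7 of the 12 fits without 1 mouse. Ighv1-14 rose by 1.70 ± 0.45 (limma adjusted p = 0.0406) and lost the call in 9 of those 12 fits, whereas Ighv1-56 rose by 1.39 ± 0.22 (limma adjusted p = 0.0044) and kept it in all 12. Ighv1-34 and Ighv1-19 had differences of 2.84 and 2.58 but just missed the threshold (limma adjusted p = 0.0511 and 0.0599). Ighv1-62-2 and Ighv1-71 had identical values on all 12 arrays and so count as 1 measurement, with a difference of -0.20 that did not pass the test.

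Outside Ighv1, Ighv6-3 had 7.43, 7.31 and 7.72 in KO females against 5.77, 5.62 and 5.97 in WT females, and 8.58, 7.38 and 7.50 in KO males against 6.83, 5.70 and 5.90 in WT males. All KO values exceeded all WT values, and the difference of 1.69 ± 0.24 (limma adjusted p = 0.00267) was nearly equal in the sexes, at 1.70 in females and 1.68 in males. Ighv2-5 rose by a smaller step, 0.55 ± 0.12 (limma adjusted p = 0.0173), with values of 7.50 to 8.02 in KO and 6.93 to 7.33 in WT livers. Ighv5-12-4, although above the negative controls on all 12 arrays, did not pass the test at 0.35 ± 0.22 (limma adjusted p = 0.385). The others that rose were Ighv10-1 (1.42), Ighv6-6 (1.37), Ighv9-3 (1.22), Ighv5-12 (0.57) and Ighv2-6-8 (0.57), picked out here because they complete the 7.

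The kappa V segments were marked by the Igkv4 subgroup. Of its 25 features 20 rose and 0 fell, with a median difference of 1.79. Of the 61 other Igkv features 9 rose, with a median of 0.34. The Igkv4 median by array was 7.28, 6.07 and 7.54 in KO females, against 4.60, 4.29 and 4.72 in WT females. It was 6.39, 4.80 and 5.05 in KO males, against 4.58, 4.02 and 4.38 in WT males. Every KO array stood above every WT array. V segments of a subgroup are close in sequence, and how far their probes detect the same RNA was not tested. The subgroup contrasts were described after the values had been seen.

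Igkv4-59 had 10.91, 8.64 and 10.60 in KO females against 5.58, 4.24 and 4.79 in WT females, and 7.67, 5.64 and 5.72 in KO males against 5.63, 4.08 and 4.90 in WT males. Its difference was 3.33 ± 0.51 (limma adjusted p = 0.00352), with a narrow gap in males, where KO male 19 (5.64) barely exceeded WT male 17 (5.63). Igkv4-54, Igkv4-55 and Igkv4-62 rose by 3.36, 3.25 and 3.23, again with KO females 13 and 69 highest, but in a fit without a sex term each missed the threshold (limma adjusted p = 0.0612, 0.0505 and 0.0577). Igkv4-57, at 2.97 ± 0.74 (limma adjusted p = 0.0323), lost its call in 8 of the 12 fits without 1 mouse, and its KO female 40 (6.36) lay nearer to WT females (4.05 to 5.02) than to KO females 13 and 69 (10.64 and 10.90). Igkv4-80, Igkv4-63, Igkv4-71 and Igkv4-86 rose by 2.80, 2.51, 2.50 and 2.40. The subgroup's smallest difference, 0.15 in Igkv4-92, was positive too.

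The 9 other kappa segments that rose were spread over 7 subgroups of Igkv, with 2 each in Igkv3 and Igkv8 and 1 in each of 5 others. Igkv14-111 rose by 1.15 ± 0.22 (limma adjusted p = 0.0106), with 5.87, 4.74 and 6.03 in KO females against 3.37 to 3.74 in WT females. In males it showed no such gap, at 3.27, 3.62 and 4.11 in KO livers against 3.26 to 3.56 in WT livers. The subgroups with the most features after Igkv4 were Igkv8, with 2 of 8 risen, and Igkv1, with 1 of 7.

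**Figure D3:**
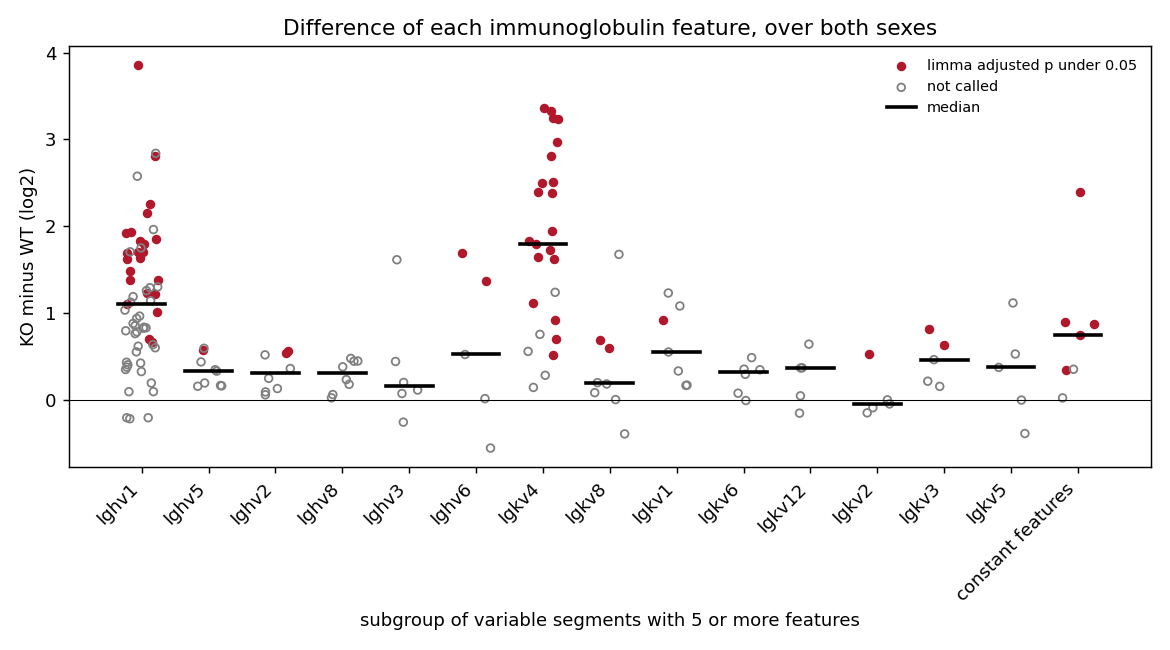
KO minus WT difference over both sexes (vertical axis, log2) of each immunoglobulin feature, by V segment subgroup with 5 or more features and for the 7 features of Ighm, Igkc and Jchain (horizontal axis); filled points passed limma at an adjusted p below 0.05, and bars are medians. Igkv4 (median 1.79, 20 of 25 called) and Ighv1 (median 1.10, 23 of 61 called) lie above the other subgroups.

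No member fell. The 16 negative differences ranged down to -0.55, and the 5 with the smallest p are given for completeness. They were Ighv6-7 at -0.55 ± 0.24 (limma adjusted p = 0.195), Ighv3-5 at -0.25, Igkv8-16 at -0.39, the pseudogene Igkv12-47 at -0.15 and Igkv5-39 at -0.38. None of them passed the test, and 4 of the 5 were above the negative controls' 95th percentile on no array.

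The sexes were then taken apart. In females 45 of the 206 features rose in KO and 0 fell, against 3.13% of all transcript features that rose and 3.06% that fell. They included 17 of the 25 Igkv4 and 13 of the 61 Ighv1 features. Of the 45, 41 had also risen over both sexes, a comparison that holds the same female arrays. The median difference in females was 0.68, against 0.07 over all transcript features. All 3 KO females lay above all 3 WT females in 116 features, a pattern that 17.3% of all transcript features showed. The count of 45 was 82 without KO female 40, and 23, 21, 28, 23 and 21 without KO females 13 and 69 and WT females 25, 27 and 38. The 4 called differences of largest size in females were Igkv4-59 (5.18 ± 0.72), Igkv4-54 (5.13 ± 0.89), Igkv4-62 (5.06 ± 0.76) and Igkv4-55 (4.92 ± 0.78), with limma adjusted p of 0.00419, 0.0107, 0.00579 and 0.0073. None of the 4 exceeded the 95th percentile of the negative controls in any WT female, so the sizes are not exact and their order is not settled. With the mean of that percentile in WT females (6.29) in place of the WT signals, the KO female mean was 13.6-fold higher for Igkv4-59. The corresponding values were 14.3-fold for Igkv4-54, 12.7-fold for Igkv4-62 and 7.17-fold for Igkv4-55. These values take no account of the spread between mice. KO female 40 was the lowest KO female in all 4 segments, at 7.29 to 8.64.

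In males 0 of the 206 features were called by limma, against 1.09% of all transcript features called in either direction. At an unadjusted p below 0.05 there were 38, against 8452 of all 65956 features, and the smallest adjusted p was 0.0544 for Ighv6-3. The median difference in males was 0.37, against 0.03 over all transcript features, and 170 of the 206 differences were positive. All 3 KO males lay above all 3 WT males in 61 features, against 11.1% of all transcript features. The 4 members with the smallest p among differences of 1.5-fold or more were Ighv6-3 (1.68), the feature of Ighm shared with Ighv2-6 (1.46), Ighv1-56 (1.17) and Ighv1-78 (1.40). Ighv1-78 had 5.27, 3.43 and 5.44 in KO males against 3.20 to 3.49 in WT males, so that KO male 19 lay among the WT males. In KO females it had only 3.68 to 3.86, against 3.33 to 3.51 in WT females.

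Although the sexes differed in calls, the difference between them passed the test in 0 features (limma interaction term), against 0.00152% of all transcript features. At an unadjusted p below 0.05 there were 34, against 4396 of all features, and the count of adjusted calls was 8 without KO female 40. Of the 64 features that rose over both sexes, 62 had a larger difference in females than in males. Among the transcript features called over both sexes, 3482 higher and 2950 lower, the signed difference was larger in females in 2969. That count was not split by direction. Igkv14-111, Igkv5-39 and Igkv4-79 had the smallest interaction p-values, with limma adjusted p of 0.424, 0.43 and 0.438. Igkv5-39 had 5.46, 4.22 and 4.78 in KO females against 6.11, 7.44 and 5.88 in WT females, and 5.97, 5.04 and 5.43 in KO males against 4.50, 5.24 and 4.03 in WT males. Its difference was -1.66 in females and 0.89 in males, neither of which passed the test. Igkv4-79 had 9.49, 7.23 and 9.08 in KO females against 5.42 to 5.51 in WT females, and 5.93, 5.69 and 5.54 in KO males against 4.77 to 5.23 in WT males.

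**Figure D4:**
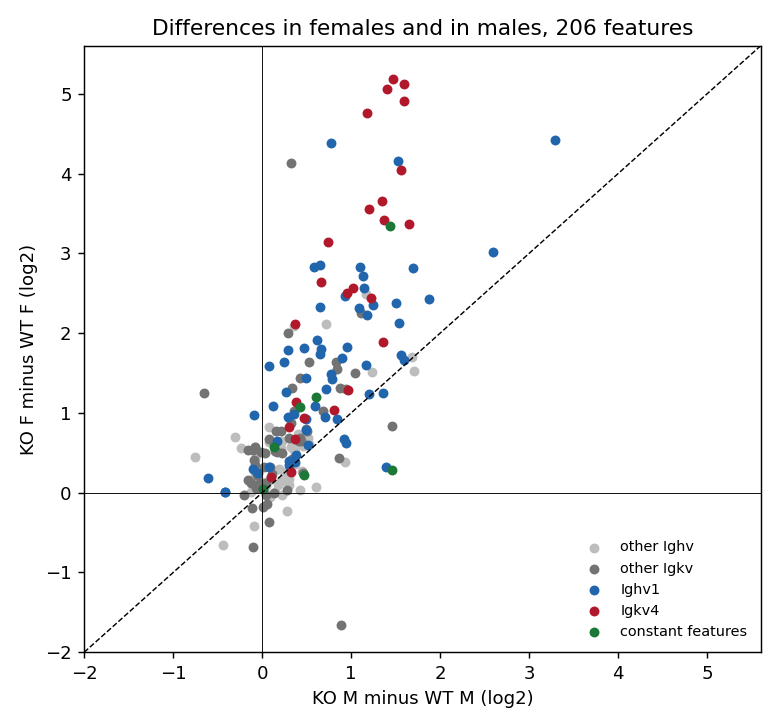
KO minus WT difference (log2) of each of the 206 immunoglobulin features in females (vertical axis) against that in males (horizontal axis); points are features, coloured by subgroup, and the dashed line marks equal differences. Igkv4 segments reach 5.18 in females and at most 1.65 in males, while Ighv1-2 is the feature farthest right, at 3.29 in males and 4.42 in females.

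Individual mice differed in ways that the group means hide. Over the 64 features that rose, KO male 18 was the highest KO male in 54 and KO female 40 the lowest KO female in 54. Among WT males, animal 17 was the highest in 47. Ighm did not follow this order, since KO female 40 had the highest value of all 12 arrays, 9.61. Single segments stood out in single mice: Ighv10-3 was at 9.81 in KO female 40 and at most 7.14 elsewhere, and the only Igkv16 segment, Ighv3-6 and Igkv12-98 were at 8.13, 8.88 and 6.91 in KO male 18 and at most 5.66, 6.82 and 4.40 elsewhere. These 4 were the only members whose highest array exceeded the next by more than 2 units, a limit chosen after the values were seen, and none passed the test between genotypes (limma adjusted p of 0.147 or more). Just under that limit, Igkv6-32 and Ighv14-3 were highest in WT male 17, at 7.64 and 6.89, exceeding the next array by 1.95 and 1.92.

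**Figure D5:**
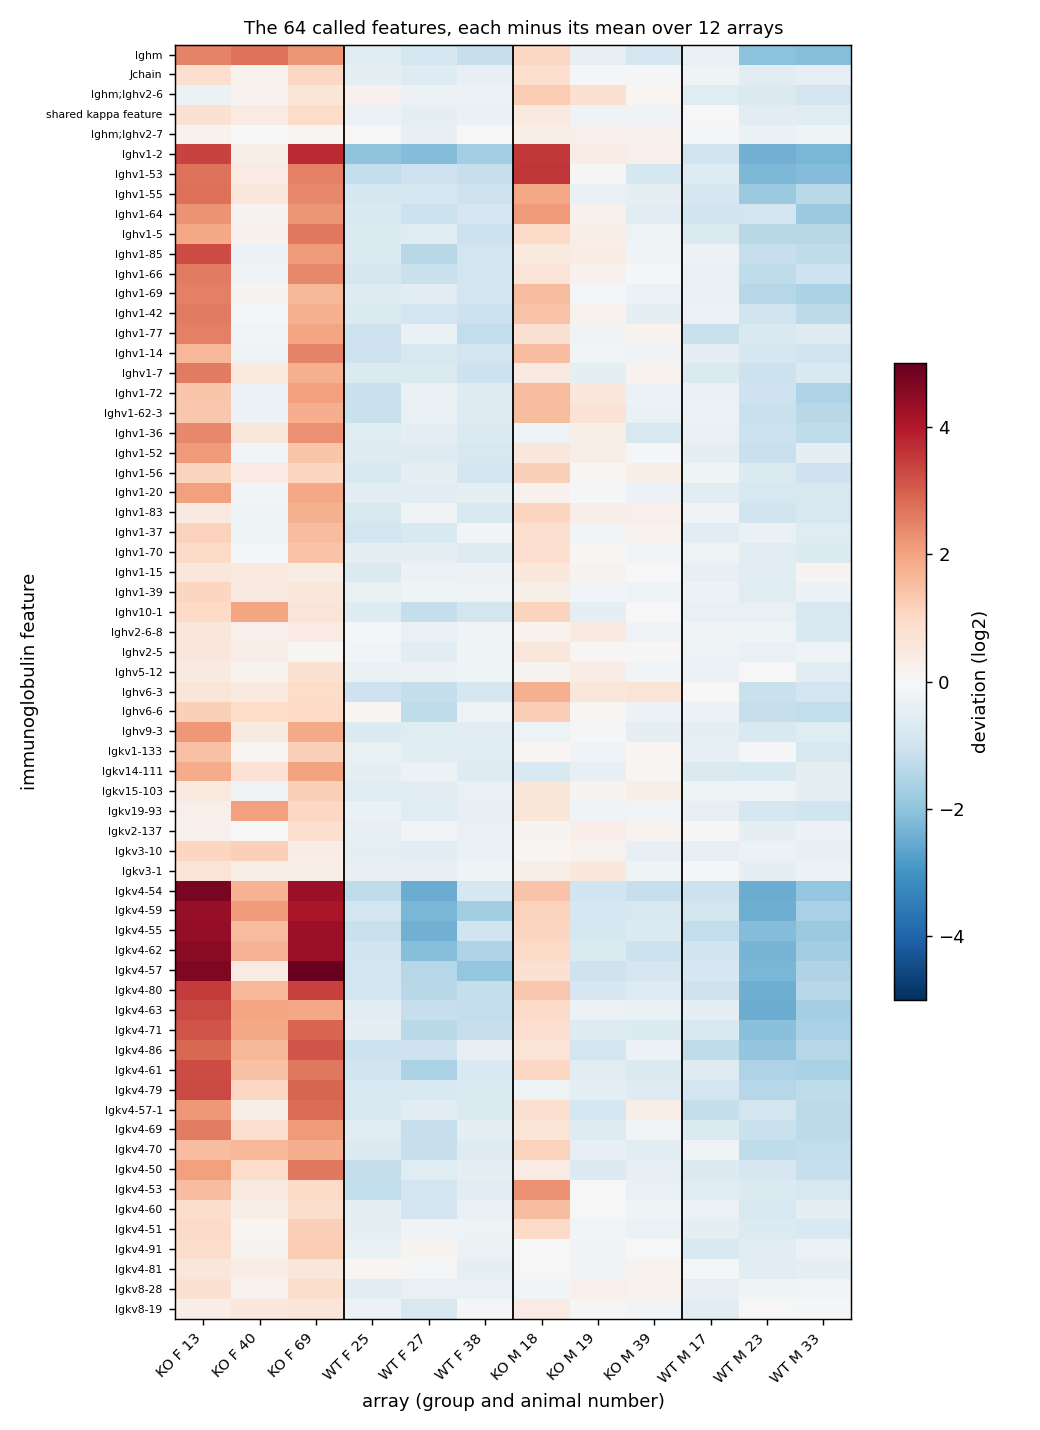
Deviation of each of the 64 features that rose (vertical axis) from its mean over the 12 arrays (colour, log2) on each array (horizontal axis), with lines between the 4 groups. The deepest reds lie in the Igkv4 segments of KO females 13 and 69, and KO male 18 stands out from KO males 19 and 39 in Ighv1-2 and Ighv1-53.

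Other immunoglobulin features, which are not among the 206, included those of IgG isotypes and the lambda chain. Ighg2b, the constant region of IgG2b heavy chains, had 10.32, 5.45 and 10.01 in KO females against 4.77, 4.86 and 4.81 in WT females, and 8.81, 6.41 and 6.53 in KO males against 5.26, 4.64 and 4.84 in WT males. All KO values exceeded all WT values, with a difference of 3.06 ± 0.79 (limma adjusted p = 0.0373). In KO female 40, where Ighm was at its highest, Ighg2b was at its lowest among KO mice. Ighg1 and Ighe, of the IgG1 and IgE heavy chains, did not pass the test. A feature shared by Ighg2c, Igha, Ighd and heavy chain joining segments rose by 1.03, and the only lambda feature, with 9 symbols, had a difference of 0.92 (limma adjusted p = 0.0706). Of 20 such features with several symbols 7 rose and 0 fell, with a median difference of 0.62. Ighg2b was above the negative controls' 95th percentile on 4 arrays. Ighg1, Ighe, the feature shared by Ighg2c and the lambda feature were above it on no array.

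Genes of the cells and signals around antibody production were counted over both sexes against the same 5.28% and 4.47%. Of 18 B cell genes 4 rose and 0 fell, with a median difference of 0.05. Cd72, a B cell surface lectin also made by some myeloid cells, had 6.69, 7.27 and 6.86 in KO females against 4.57 to 4.82 in WT females, and 6.84, 4.84 and 5.35 in KO males against 4.61 to 4.77 in WT males, a difference of 1.62 ± 0.28 (limma adjusted p = 0.00667). Btk, Cd79b and Cd37 rose by 0.69, 0.55 and 0.52, while Ms4a1 (CD20) and Cd79a, which mark B cells closely, had differences of -0.06 and 0.05 and did not pass the test. Ms4a1 and Cd79a, and also Btk, Cd79b and Cd37, were among the 16 of the 18 genes that stayed below the negative controls' 95th percentile on all arrays. Of 14 plasma cell genes 0 rose and 1 fell, with a median difference of -0.13, and 7 of the 14, Mzb1 among them, were above the negative controls' 95th percentile on no array. The gene that fell was Txndc5, a disulphide isomerase also made by other secretory cells, with a difference of -0.68 ± 0.08 (limma adjusted p = 0.00116), and Mzb1, a chaperone of antibody assembly, had a difference of 0.04. Within females 2 of the 14 plasma cell genes rose and 1 fell, against 3.13% and 3.06% of all transcript features. The median difference of the 14 genes in females was -0.15. The 2 that rose, both among those 7, were Prdm1, a regulator of plasma cell differentiation, and Tnfrsf13b, the receptor TACI. Prdm1 rose by 0.23 and Tnfrsf13b by 0.22 (limma adjusted p = 0.0452 and 0.0486). The gene that fell in females was again Txndc5, at 9.31 to 9.42 in KO against 10.25 to 10.45 in WT females (limma adjusted p = 0.00187). The mean level of the B cell list was 4.16 to 4.60 in KO and 4.06 to 4.28 in WT arrays, and that of the plasma cell list 5.94 to 6.06 in KO and 6.02 to 6.36 in WT arrays. The latter mean was weighted by Sdc1, Xbp1, Txndc5, Creld2 and Edem1, the 5 genes above the negative controls' 95th percentile on all 12 arrays.

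By limma 0 genes were called among 9 of B cell precursors, 8 of germinal centres and class switching, 12 of T cells and 6 of erythroid cells, with 3, 3, 3 and 2 at an unadjusted p below 0.05. In these 4 lists 9, 6, 12 and 4 genes were above the negative controls' 95th percentile on no array, so that a change in them could have gone unseen. Of 14 genes that attract B cells or keep them alive 2 rose, Cxcl13, a B cell chemokine, and Tnfsf13b, the survival factor BAFF. Cxcl13 had 18.19, 17.34 and 18.16 in KO females against 8.25, 9.85 and 11.85 in WT females, and 15.50, 16.11 and 11.91 in KO males against 10.53, 10.38 and 8.43 in WT males (difference 6.32 ± 0.82, limma adjusted p = 0.00185). KO and WT values did not overlap, and the lowest KO value, in KO male 39, was just above the highest WT value, in WT female 38. Tnfsf13b had a difference of 0.30 ± 0.06 (limma adjusted p = 0.0111) and stayed within the range of the negative controls.

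Of 9 genes that bind or carry antibodies 2 rose and 2 fell. The IgG receptor Fcgr4 and the receptor signalling chain Fcer1g rose by 6.47 and 4.86. Pigr, which carries polymeric IgA and IgM into bile, had a difference of -0.81 ± 0.12 (limma adjusted p = 0.00326), and Fcgrt, the receptor that spares IgG from breakdown, -1.30 ± 0.20 (limma adjusted p = 0.00397). All 6 KO values of Pigr lay below all 6 WT values, at 16.50 to 17.54 in KO and 17.55 to 18.22 in WT livers. Among markers of other leukocytes, 0 of 12 T cell genes were called, but all 12 were above the negative controls' 95th percentile on no array. Of 11 macrophage genes 10 rose and of 11 neutrophil genes 8 rose, and 0 fell, with medians of 2.49 and 1.45. That percentile was passed on all 12 arrays by 9 of the macrophage genes and on no array by 5 of the neutrophil genes. Their mean levels per array were 9.39 to 13.17 in KO and 7.44 to 8.77 in WT for macrophages, and 4.96 to 8.23 in KO and 4.09 to 4.61 in WT for neutrophils. The macrophage gene Marco had 14.00, 16.98 and 13.71 in KO females and 14.14, 11.05 and 10.37 in KO males, so that it was highest in KO female 40, in which most of the 64 immunoglobulin features were the lowest of the KO females. Of 9 hepatocyte genes 5 were at the array's highest value on all 12 arrays and 1 on 11, so that no change could be seen in them. Among the other 3 only Asgr1, an asialoglycoprotein receptor, fell (-0.84). The part of these cells in the immunoglobulin differences was not tested.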

How the data were processed

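Liver RNA of 12 mice was measured on 1 Affymetrix array each. The values are log2 signals deposited by the authors, for which the submitters' processing notes name Transcriptome Analysis Console; its version, the normalization, the background correction and the genome build were not given in the sources used here. Of 72688 features, 6732 controls were left out of the tests. Symbols came from the platform annotation, with 31258 transcript features holding 1 symbol, 1492 several and 33206 none. All 199 single V segment symbols were found in the RefSeq table.

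Means of the 4 groups were fitted to all 65956 transcript features with limma 3.58.1 in R 4.3.3 (lmFit, eBayes) and p-values adjusted by Benjamini-Hochberg over all of them (threshold 0.05). No feature was filtered in that fit. Contrasts were KO minus WT over both sexes and within each, and the difference between these. Array measures were compared by exact permutation within sex. The number of mice sets the precision; nothing says whether mice were littermates, and no animal number occurs in 2 groups, so nothing pairs them. On simulated data with the spread of these arrays, changes of 0.5, 1, 2 and 4 were recovered at 34%, 90%, 100% and 98%, with 12 false calls among 65956 features. Each simulated feature had 1 spread in all 4 groups and the same change in both sexes. In some members the spread differed between groups, as in Igkv4-57 (SD 2.55 in KO and 0.49 in WT females). The recovery rates may therefore not apply to them.

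Members, the 12 gene lists (146 entries) and the choice of genes to name were made with earlier results of these data known. Named were all features of Ighm, Igkc and Jchain, the 6 brightest V segments in each of Ighv and Igkv, the 10 largest rises, the falls (filled to 5 by smallest p), the 4 largest differences within each sex (filled likewise at 1.5-fold or more), the 3 smallest interaction p-values, and up to 4 genes per list. A gene with several features is given by its brightest. Other genes were named after their values were seen. Alternatives were 3 scalings, a filter on dim features, no sex term, a poly-A covariate, another variance estimate, shared features as members, other percentiles of the negative controls and mice left out; leaving out Igkv4 was added after seeing the data.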

Additional observations from a re-analysis of the deposited data

Results flagged for a closer look

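Among the 64 groups of 6 mice examined for a sample far from the others (31 features and the median of all 206, in KO and in WT), 3 stood out, about the number chance gives at 1 in 20. In KO livers Ighv6-3 was at 8.58 in KO male 18, 0.85 above the next KO mouse. In WT livers the same segment was at 6.83 in WT male 17, 0.86 above the next. Igkv4-80 was at 3.69 in WT male 23, 1.04 below the next WT mouse. All 3 were males, and the call for both segments held in each fit that left out 1 mouse.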

How the results depend on the processing

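In none of the alternatives run did more than 1 immunoglobulin feature fall, and the median difference over both sexes ran from 0.42 to 0.61 under the scalings, the covariate and the other choices of mice and features, apart from 2.45 under the filter on dim features. That filter left 16 immunoglobulin features, of which 15 rose over both sexes and 15 in females; since 12 of the 16 passed it only through KO females, where they are high, these values were largely set by the filter and say nothing about stability. With the poly-A level as a covariate 0 rose over both sexes and 0 in females, and the cause was not tested. Without KO male 19 and WT female 38 together, 38 rose and 1 fell over both sexes, 20 were called in females and 1 for the difference between the sexes. In the main fit to all 12 mice, 45 were called in females, 17 of them Igkv4 features, and with Igkv4 left uncounted 28 remained. Without a sex term 44 rose, all among the 64; among the named segments that lost the call were Igkv4-54, Igkv4-55, Igkv4-57, Igkv4-62, Igkv4-79 and Igkv14-111. In males 1 was called under quantile normalization, under the filter and without those 2 mice, and 2 under centring on the transcript or the negative control median and with eBayes trend and robust variance. The count above the negative controls was 28 at the 90th and 0 at the 99th percentile.

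Leaving out 1 mouse gave 38 to 97 that rose and 0 to 1 that fell over both sexes, 21 to 82 called in females, 0 to 2 in males and 0 to 8 for the difference between the sexes. The median difference ran from 0.49 to 0.64, the features above the negative controls from 16 to 37, and the negative control difference from 0.13 to 0.15. With a mouse left out fewer arrays had to pass, so that the count of features above the negative controls could not fall below 16. The 38 came without WT male 33, the 97, 82, 8 and 37 without KO female 40, and the 21 without KO female 69 or WT female 38. Of the single features named, the one shared by Ighm and Ighg3 turned to -0.039, -0.042 and -0.11 under the 3 scalings and to -0.18 with the covariate, and ran from -0.017 without WT female 38 to 0.057 without WT female 25. With the covariate Ighv5-12-4 turned to -0.46, Ighv1-78 to -0.79 and Ighv3-5 to 0.037; none of these was called in any of those fits. No paired analysis was possible because no animal number occurs in more than 1 group. What limits these results is signal over background, since 152 of the 206 features lay within the negative controls on all arrays, and the number of mice.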
